A study of Mus musculus with 2 samples.

Results

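The neurotrophin receptor and ligand genes Ntrk2, Ntrk3, Ngfr, Bdnf and Ntf3 were followed through the cells of the mouse trigeminal ganglion (TG), the sensory ganglion of the face. They were taken by name and are 5 of the 39098 genes listed for the series. All 5 were found in both libraries. The study asked how single TG cells differ after orofacial inflammation, and it holds 1 library per condition. Both libraries came from the right TG of male C57BL/6 mice of 5 to 8 weeks. In the CFA library the mice had received 20 μL of complete Freund's adjuvant, an oil emulsion with killed mycobacteria that inflames tissue, in the right vibrissal pad, and the ganglia were taken 7 days later. The control library is labelled untreated, and the study's methods describe its mice as injected with saline. No allele was altered in either group. How many of the study's mice went into each library is not given in the sources used here, and whether several were pooled is not stated. With 1 library per condition no difference between them could be tested, and all intervals below cover counting error only.

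Neurotrophins are secreted growth factors that keep sensory neurons alive during development and tune their excitability in the adult. Ntrk2 encodes TrkB, the tyrosine kinase receptor of BDNF, and Ntrk3 encodes TrkC, the receptor of neurotrophin-3. Ngfr encodes the p75 neurotrophin receptor, which binds every neurotrophin and is also a known marker of Schwann cells that do not form myelin. Bdnf and Ntf3 encode the ligands BDNF and neurotrophin-3. In sensory ganglia TrkB and TrkC are known for low-threshold mechanoreceptors and proprioceptors, and BDNF for peptidergic nociceptors. Glia and fibroblasts also make TrkB and TrkC without the kinase domain, a form that counts per gene do not separate from the full receptor.

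In the GENCODE M21 annotation of GRCm38, the build named in the submitters' processing notes, all 5 are protein-coding genes. Ntrk2 lies on chromosome 13 (58806569 to 59133970, plus strand) and Ntrk3 on chromosome 7 (78175959 to 78738012, minus strand). Ngfr lies on chromosome 11 (95568818 to 95587735, minus strand), Bdnf on chromosome 2 (109674700 to 109727007, plus strand) and Ntf3 on chromosome 6 (126101412 to 126166910, minus strand).

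The control library held 7298 cells and 48916096 unique molecular identifiers (UMIs, each 1 captured RNA molecule), and the CFA library 4080 cells and 22096268 UMIs. After filtering, 6695 and 3661 cells remained, of which 809 and 416 were neurons. Neurons had a median of 44109 and 36676 UMIs and the other cells of 1305 and 1093. The libraries shared 27 cell labels. Cell classes and neuronal subtypes were rebuilt here by clustering without these 5 genes and named from marker lists, so each name means that the cells resemble the type. The neuron markers summed to 15806 CPM (counts scaled to a total of 1e6 UMIs) in control neurons and 15427 in CFA neurons, with none of the 9 at 0. Levels are given as CPM of the summed UMIs of a class, first in the control and then in the CFA library. Outside the neurons, neuron-marker RNA was higher in the control library in 9 of 10 groups of cells, for example at 629 against 300 CPM in satellite glia.

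Ntrk2 RNA lay mostly outside the neurons. Satellite glia, the cells that wrap each neuron's soma, held 58.2% of all control and 54.5% of all CFA counts of Ntrk2, and neurons held 14.4% and 19.9%. In satellite glia the level was 755 CPM (95% interval 721 to 790, 1177 cells) in control and 807 (749 to 869, 456 cells) in CFA. It stood above that of the next named class, mural cells at 294 CPM, by 1.36 on the log2 scale (0.84 to 1.93) in the control library. Mural cells, non-myelinating Schwann cells (253 and 229 CPM) and fibroblasts (238 and 203 CPM) followed, with erythroid cells (260 and 146 CPM) among them, and within each library neighbours in this order did not differ beyond their counting intervals. Myelinating Schwann cells had 95.2 and 59.0 CPM. Oligodendrocytes, the myelinating glia of the central root, had 2.04 and 5.44 CPM from 1 and 4 counts. With every cell thinned to 500 UMIs, 26.4% of control and 31.7% of CFA satellite glia held an Ntrk2 UMI (66.2% and 69.5% unthinned). Among immune cells, which have a similar median depth (1752 and 1548 UMIs against 1945 and 1755), the shares were 0.238% and 0% after thinning. The 0 of 250 CFA immune cells allows a share of up to 1.20%.

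The satellite glia fell into 2 clusters. The larger, led by Fabp7, Apoe and Fbln2, had 810 and 807 CPM of Ntrk2. A second, led by the interferon-induced genes Cxcl10, Gbp2 and Ifi47, had 556 CPM in control and held 226 control cells but only 2 CFA cells, and whether it is a kind of cell or that library cannot be told apart. An unnamed cluster led by Olig1, Vcan and Cspg5 (13 and 18 cells) had 417 and 448 CPM. The erythroid level came from 21 and 20 counts. In erythroid cells the satellite glia markers summed to 12113 and 8069 CPM, and Ntrk2 made 2.15 and 1.80 counts per 100 of those marker counts, near the 1.52 and 1.68 of satellite glia themselves. The same ratio was 3.83 and 3.02 in fibroblasts and 7.35 and 9.64 in mural cells. It was 2.49 and 2.71 in non-myelinating Schwann cells and 1.981 and 1.935 in myelinating Schwann cells. Immune cells (0.543 and 0.0595), endothelial cells (0.704 and 0.402) and oligodendrocytes (0.062 and 0.175) had lower ratios than satellite glia. What part of the marker counts in other classes was satellite glia RNA was not tested. How much of the Ntrk2 in Schwann cells was satellite glia RNA was not tested.

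**Figure D1:**
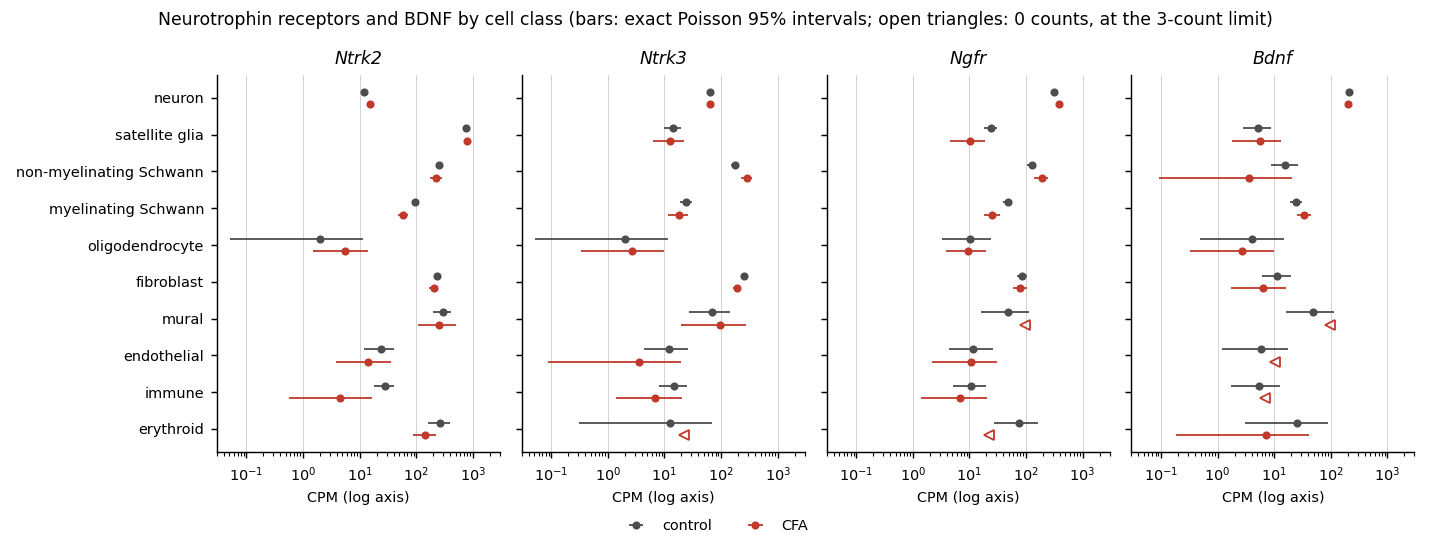
Level of the receptors Ntrk2, Ntrk3 and Ngfr and of Bdnf in 10 cell classes, in CPM on a log axis, with control in grey and CFA in red. Points are summed counts of 1 library and lines are exact Poisson 95% intervals, and an open triangle marks a class with 0 counts at the level of 3 counts. Ntrk2 is highest in satellite glia, Ngfr and Bdnf are highest in neurons, and Ntrk3 is highest in fibroblasts and non-myelinating Schwann cells, above the neurons taken as a whole.

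In neurons Ntrk2 stood at 12.2 CPM (11.1 to 13.3) in control and 15.6 (13.7 to 17.6) in CFA, and most of it came from a few subtypes. The large A-fibre neurons with neurofilament (NF, 17 and 6 neurons) had 116 and 104 CPM. The cold-sensing Trpm8 neurons (61 and 35 neurons) had 64.3 and 98.1 CPM. The C-fibre low-threshold mechanoreceptors (cLTMR, 73 and 48 neurons), touch neurons of hairy skin, had 26.1 and 25.8 CPM. All other named subtypes lay at 5.51 CPM or below in both libraries. In those other subtypes Ntrk2 made 0 to 1.41 counts per 100 counts of satellite glia markers, no more than in satellite glia. In NF neurons it made 40.3 and 26.7, in Trpm8 neurons 25.3 and 70.1 and in cLTMR neurons 6.68 and 8.85. Ntrk2 was uneven from cell to cell. In the control NF neurons 1 of the 17 held 43 of the 79 counts, and in the CFA library 1 of the 6 held 26 of the 36. Of the control NF neurons, 6 had no Ntrk2 UMI, while the highest had 816 CPM.

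Ntrk3 was the broader of the kinase receptor genes among neurons, at 63.0 CPM (60.5 to 65.5) in control and 64.2 (60.4 to 68.1) in CFA. Neurons held 80.2% and 80.8% of all its counts, but they also held most of the UMIs. Over all non-neuronal cells the Ntrk3 level was 62.1 and 52.5 CPM, near that of neurons in control. NF neurons had the highest subtype level, 298 CPM (259 to 342) and 440 (373 to 515). In CFA, however, 103 of the 152 NF counts came from 1 of 6 neurons, and without the highest neuron of each library the NF levels were 259 and 181 CPM. The cLTMR neurons followed at 219 and 215 CPM and were the most uniform. Only 2 of 73 control and 1 of 48 CFA cLTMR neurons lacked an Ntrk3 UMI, with medians of 194 and 189 CPM per neuron. NP2 neurons, non-peptidergic itch neurons with Mrgpra3, had 88.9 and 104 CPM and Trpm8 neurons 71.1 and 53.7. NP1 neurons, the Mrgprd-type C fibres, had 45.7 and 40.7, and the peptidergic PEP1 neurons 17.1 and 11.1.

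Subtype means of Ntrk3 hid a split between clusters. Among NP2 neurons, the cluster led by Cbln1 and Mlc1 (31 and 9 neurons) had 152 and 201 CPM. The cluster led by Mrgpra3, Crip1 and Gda (22 and 7 neurons) had 3.89 CPM in control from 6 counts and none in CFA. Among the peptidergic neurons with neurofilament (PEP-NF), the cluster led by Trappc3l and Htr3a (13 and 14 neurons) had 187 and 151 CPM. The PEP-NF cluster led by Cdhr1 (38 and 21 neurons) had 1.72 and 13.9 CPM, from 3 and 11 counts. Both NP1 clusters held Ntrk3, at 58.7 and 59.3 CPM in the one led by Lpar3, and at 26.2 and 15.5 in the one led by Ly86. In both splits the cluster with Ntrk3 was the same in the 2 libraries.

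Outside the neurons Ntrk3 was found in fibroblasts at 250 CPM (222 to 281) and 192 (160 to 230), and in non-myelinating Schwann cells at 179 (153 to 208) and 287 (227 to 357). It was low in satellite glia, at 14.3 and 12.4 CPM, and in myelinating Schwann cells, at 24.3 and 17.8. Fibroblasts held 36.6 and 73.8 Ntrk3 counts per 100 counts of neuron markers and non-myelinating Schwann cells 22.2 and 75.2, against 0.398 and 0.416 in neurons.

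Ngfr was mainly a neuronal RNA. Neurons held 96.4% and 97.6% of its counts, at 313 CPM (307.5 to 319) in control and 382 (373 to 391.9) in CFA. PEP-NF neurons were highest, at 929 CPM (890 to 970) and 1184 (1122 to 1249). PEP1 neurons had 447 and 437 CPM, NF neurons 373 and 356, cLTMR neurons 334 and 299 and NP2 neurons 322 and 283. NF and cLTMR neurons did not differ beyond their intervals in either library, and neither did cLTMR and NP2 neurons. Trpm8 neurons had 16.6 and 10.1 CPM, PEP2 neurons (the study's name for neurons with Sst and Nppb) 14.7 and 49.3, and NP1 neurons 8.81 and 5.31. The 27 Ngfr counts of CFA PEP2 neurons came from 5 of 11 neurons, 12 of them from 1.

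Single neurons were then counted. Each neuron was thinned to 10000 UMIs and called for a gene at 2 UMIs or more, which left 749 control and 378 CFA neurons. Ngfr was called in 52.6% of control neurons (49.0% to 56.2%) and 58.7% of CFA neurons (53.6% to 63.7%). By subtype it was called in 91.1% and 96.3% of PEP-NF neurons and in 85.7% and 67.4% of cLTMR neurons. In NP1 neurons it was called in 1 of 163 and 0 of 60, in Trpm8 neurons in 0 of 58 and 1 of 34, and in PEP2 neurons in 0 of 12 and 3 of 11. The 0 of 60 allows a share of up to 5.0% and the 0 of 58 up to 5.17%. The median depth of control NP1 (66037 UMIs) and Trpm8 neurons (42425) was above or near that of PEP-NF neurons (43087). Control NP2 (71671) and cLTMR neurons (53179) were deeper than Trpm8 neurons, and thinning set all called neurons to the same depth. NP1 and Trpm8 neurons are described as low from these same counts. Whether their few Ngfr counts are background RNA was not tested.

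**Figure D2:**
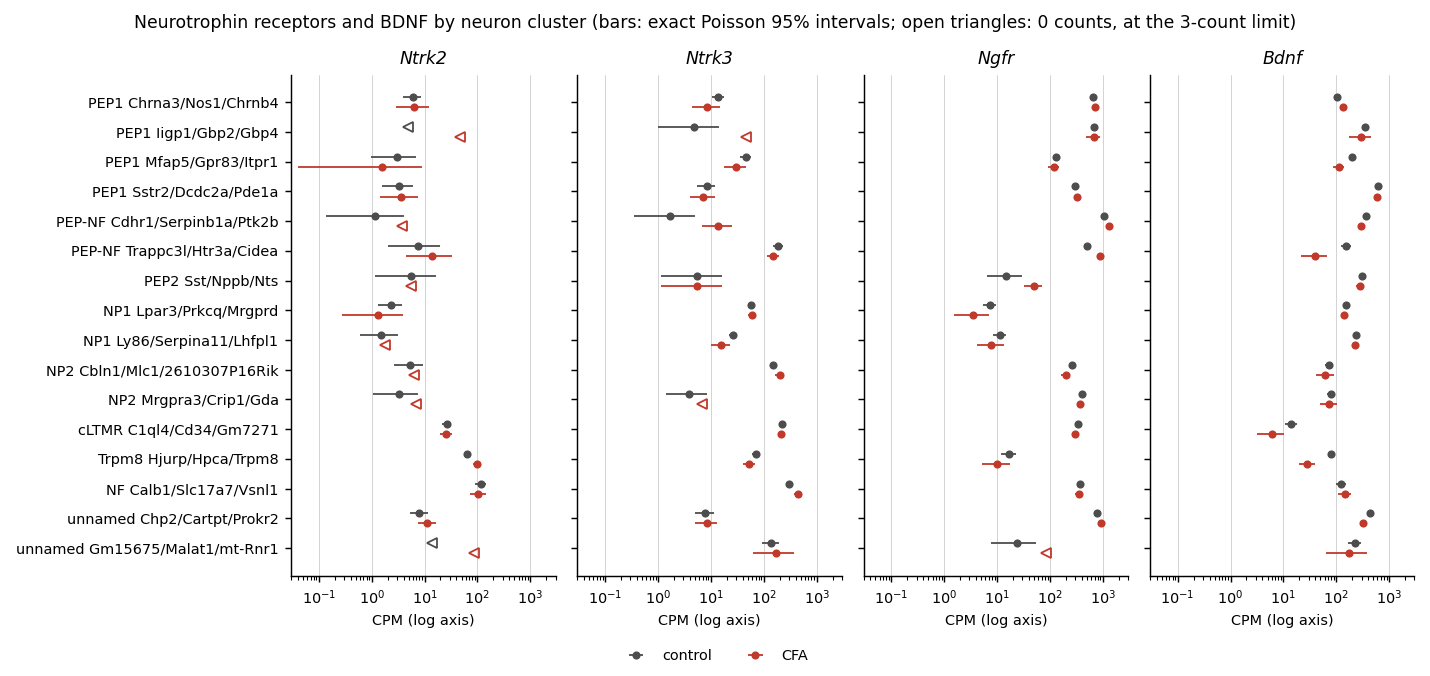
Level of Ntrk2, Ntrk3, Ngfr and Bdnf in the 16 neuron clusters, each given its subtype and 3 leading genes, in CPM on a log axis. Grey points are the control and red points the CFA library, with exact Poisson 95% intervals, and open triangles mark 0 counts at the level of 3 counts. Ngfr is low in both NP1 clusters, the PEP2 cluster, the Trpm8 cluster and the cluster led by Gm15675, and high in the others.

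Within PEP1 neurons Ngfr ran from 130 and 119 CPM in the cluster led by Mfap5 to 638 and 722 in the cluster led by Chrna3 and Nos1. The PEP1 cluster led by Sstr2 lay between, at 298 and 322 CPM. A cluster of 97 control and 73 CFA neurons led by Chp2, Cartpt and Prokr2 was left unnamed, because its leading genes held more fibroblast markers than markers of its nearest subtype, PEP1. It had 785 and 910 CPM of Ngfr. Fibroblast markers in it summed to 356 and 283 CPM, against 55690 and 45151 in fibroblasts, whose own Ngfr stood at 84.9 and 79.5.

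Glial Ngfr was lower and was not alike between glia. Non-myelinating Schwann cells had 126 CPM (104.8 to 151, 120 counts) in control and 189 (141 to 247, 52 counts) in CFA. Fibroblasts had 84.9 and 79.5, myelinating Schwann cells 47.6 and 25.6, satellite glia 23.9 and 10.2, immune cells 10.7 and 6.90 and oligodendrocytes 10.2 and 9.52. Set against neuron-marker RNA in the same cells, Ngfr made 15.6 and 49.5 counts per 100 marker counts in non-myelinating Schwann cells and 12.4 and 30.5 in fibroblasts, but 1.98 and 2.48 in neurons. In myelinating Schwann cells it made 2.18 and 1.92, close to neurons. Most of that class's neuron-marker RNA and 86 of its 137 control Ngfr counts lay in the cluster led by Pou3f1, which had 7416 and 7322 CPM of neuron markers. In satellite glia the ratio was 3.80 and 3.38. There the interferon-gene cluster had 51.7 CPM in control and the main cluster 16.2 and 10.2 CPM. With each cell thinned to 500 UMIs, 5.31% and 4.83% of non-myelinating Schwann cells and 3.77% and 4.80% of fibroblasts held an Ngfr UMI. The share was 1.79% and 1.32% in satellite glia and 0.238% and 0.4% in immune cells.

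Few neurons were called for both kinase receptor genes, Ntrk2 and Ntrk3, and Ntrk2 was itself seldom called. Ntrk2 was called in 2.00% (1.12% to 3.28%) of control and 3.17% (1.65% to 5.48%) of CFA neurons. Ntrk3 was called in 13.6% (11.2% to 16.3%) and 13.2% (9.98% to 17.1%). Both were called in 5 of 749 control and 2 of 378 CFA neurons. As only 15 control and 12 CFA neurons were called for Ntrk2, no exclusion between the genes is read from this. Ngfr without either kinase gene was the largest receptor class, with 45.1% and 49.5%, and 39.9% and 34.7% of neurons were called for none of these 3 receptors. Ntrk3 went with Ngfr in 53 and 31 neurons and without it in 49 and 19.

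The subtypes divided these classes between them. In cLTMR neurons Ntrk3 together with Ngfr was called in 30 of 70 control and 18 of 43 CFA neurons. In PEP1 neurons Ngfr without a kinase gene was called in 156 of 237 and 81 of 112, and Ntrk3 in 7 and 1. In Trpm8 neurons Ntrk2 alone was called in 6 of 58 and 6 of 34, and Ntrk3 alone in 15 and 5. No Trpm8 neuron of either library was called for both, which allows up to 5.17% and 8.82%. With so few called for Ntrk2, no exclusion between the genes is read here either. All 13 control and all 5 CFA NF neurons deep enough to be counted were called for at least 1 of the 3 receptors. The cut of 2 UMIs weighs heavily on Ntrk2, where 65 control and 31 CFA neurons held 1 or 2 UMIs and only 15 and 12 were called.

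**Figure D3:**
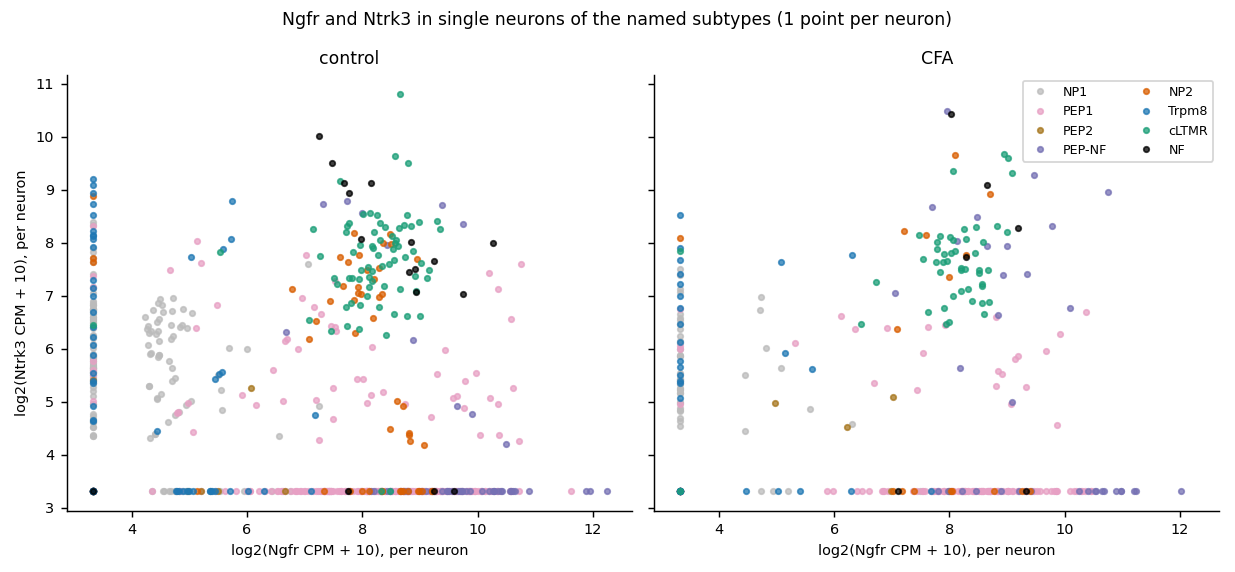
Ngfr on the horizontal and Ntrk3 on the vertical axis, both as log2(CPM + 10), with 1 point for each neuron of a named subtype, control on the left and CFA on the right. The cLTMR neurons (green) form a group high in both genes, the Trpm8 (blue) and NP1 (light grey) neurons lie along the left side with little Ngfr, and most PEP1 neurons (pink) lie at the bottom with Ngfr and little Ntrk3.

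**Figure D4:**
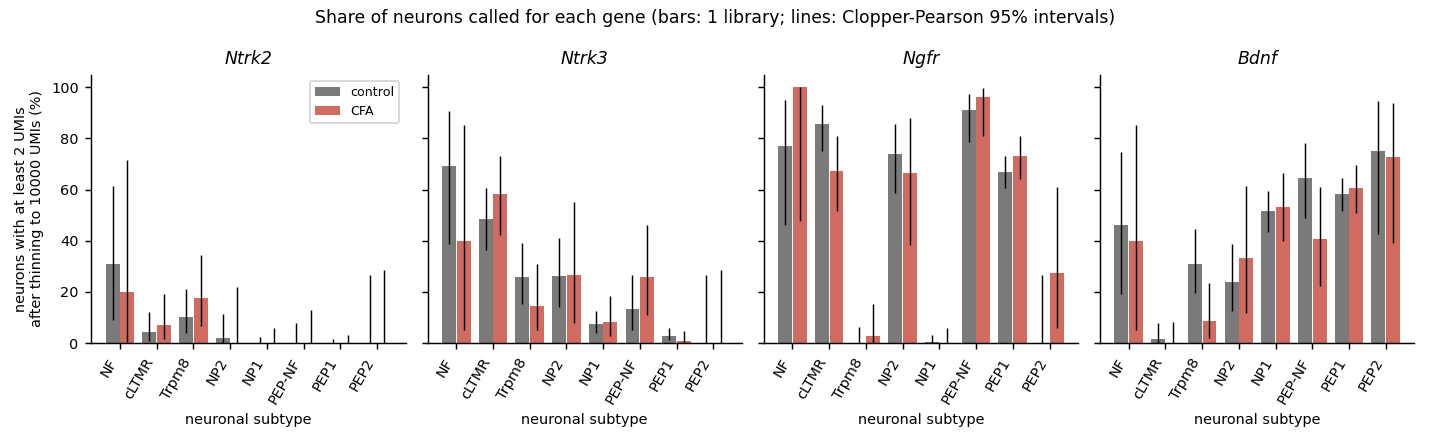
Share of neurons with at least 2 UMIs of Ntrk2, Ntrk3, Ngfr or Bdnf after thinning to 10000 UMIs, by subtype, with control in grey and CFA in red. Lines are Clopper-Pearson 95% intervals. Ngfr is called in most PEP-NF, PEP1, cLTMR, NP2 and NF neurons and in few NP1 and Trpm8 neurons, and Bdnf is called in no more than 1 cLTMR neuron of a library.

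Bdnf was made almost only by neurons, which held 98.4% of its counts in control and 98.3% in CFA, at 208 CPM (204 to 213) and 205 (198 to 212). Of the named subtypes, PEP-NF (316 and 216 CPM), PEP2 (312 and 283) and PEP1 neurons (294 and 346) had the most. In the control library these neighbours in the order did not differ beyond their intervals. NP1 neurons had 186 and 175 CPM, NF neurons 121 and 145, Trpm8 neurons 80.9 and 28.5, and NP2 neurons 75.9 and 67.5. The cLTMR neurons were lowest at 13.9 and 5.99 CPM. NP1 and PEP2 neurons had Bdnf with little Ngfr, and cLTMR neurons had Ngfr with little Bdnf.

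The PEP1 cluster led by Sstr2 and Dcdc2a was the strongest source, at 611 and 581 CPM. In it 84 of 89 control and 54 of 60 CFA neurons were called for Bdnf. The cluster led by Chrna3 and Nos1 had 104 and 135 CPM, and 90 of its 193 CFA counts came from 1 of 33 neurons. The unnamed cluster led by Chp2 had 428 and 323 CPM. Over all neurons Bdnf was called in 50.1% (46.4% to 53.7%) of control and 46.8% (41.7% to 52.0%) of CFA neurons. It was called with Ngfr in 205 and 114 neurons and without it in 170 and 63.

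Outside the neurons Bdnf was low, at 13.4 and 12.5 CPM. Over all non-neuronal cells it made 1.14 and 1.70 counts per 100 counts of neuron markers, against 1.32 and 1.33 in neurons. Myelinating Schwann cells, the only non-neuronal class with over 10 counts in both libraries, had 24.3 and 34.1 CPM. Its cluster led by Pou3f1, with its neuron markers, had 82.1 and 182 CPM and held 50 of the 70 control and 35 of the 48 CFA counts. Mural cells had 5 counts in control (49.0 CPM) and none in CFA, and erythroid cells 2 and 1 counts (24.8 and 7.28 CPM). Satellite glia had 5.17 and 5.64 CPM and immune cells 5 counts in control (5.33 CPM) and none in CFA. Microglia are a known source of BDNF in the injured spinal cord. In CFA immune cells a count of 0 allows up to 3 counts, or 6.90 CPM.

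Ntf3 was seldom detected, with 19 counts in 12 control cells and 4 counts in 4 CFA cells. Of these, 14 control and 2 CFA counts lay in the unnamed neuron cluster led by Chp2, in 8 and 2 neurons, of which 1 held 5. Mural cells, the contractile cells around vessels, held 2 counts in 1 control cell and 1 count in 1 CFA cell. The remaining counts were single ones in a fibroblast, an endothelial cell, an NP2 neuron and a PEP-NF neuron. The level over all cells was 0.394 and 0.185 CPM. At this depth the libraries could not be told apart for Ntf3 over all cells (log2 ratio of CFA over control -1.09, -3.11 to 0.50). In the unnamed cluster alone the ratio was -2.27 (-5.45 to -0.15), from 14 and 2 counts.

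The libraries were then compared by the log2 ratio of CFA over control CPM. Over all neurons none of the 4 member genes with at least 50 counts passed 0.5 in either direction, where 6.18% of 14493 genes lay above it and 6.04% below. Ngfr was higher by 0.29 (0.24 to 0.33), Ntrk2 by 0.36 (0.13 to 0.58, and by 0.15 with an interval of -0.07 to 0.35 when no limit was set on mitochondrial counts) and Ntrk3 by 0.03 (-0.08 to 0.13), and Bdnf was at -0.02 (-0.08 to 0.04). The share of neuron clusters differed between the libraries. With each cluster given the same share of UMIs, a comparison added after the data were seen, the Ngfr ratio was 0.15, that of Ntrk2 0.19 and that of Bdnf -0.21.

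Within subtypes the ratios did not all share a direction, and the median gene lay between -0.04 and 0.03 in every one. Ngfr was higher in CFA PEP-NF neurons, by 0.35 (0.25 to 0.45). It was also higher by 0.18 (0.07 to 0.28) in the PEP1 cluster led by Chrna3 and by 0.21 (0.13 to 0.30) in the unnamed cluster led by Chp2. It was lower in cLTMR neurons, at -0.16 (-0.30 to -0.02), and at -0.03 (-0.11 to 0.05) in PEP1 neurons as a whole. The PEP-NF cluster led by Trappc3l was at 0.80 (0.57 to 1.04), with 144 of its 317 CFA counts in 1 of 14 neurons. Without the highest neuron of each library its ratio was 0.88 (0.57 to 1.19). Without the highest CFA neuron alone it was 0.39 (0.10 to 0.67). In NP1 neurons Ngfr was at -0.73 (-1.48 to -0.04), the only one of 3 members past 0.5, where 4.13% of genes were above and 6.52% below. Of the NP1 neurons, 106 of 177 in control and 53 of 65 in CFA had no Ngfr UMI.

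Bdnf was lower in CFA, with an interval clear of 0, in 3 named subtypes. It was also lower in the unnamed cluster led by Chp2, at -0.41 (-0.54 to -0.28, 1494 and 777 counts). In PEP-NF neurons it was at -0.55 (-0.76 to -0.34), 1 of 3 members past 0.5, where 7.65% of genes were above and 8.6% below. It was at -0.31 (-0.53 to -0.09) in the PEP-NF cluster led by Cdhr1 and at -1.97 (-2.91 to -1.15, 82 and 14 counts) in that led by Trappc3l, which made up 13 of 51 control and 14 of 35 CFA neurons. In Trpm8 neurons it was at -1.51 (-2.07 to -0.98, 214 and 34 counts), and in cLTMR neurons at -1.22 (-2.21 to -0.33). In Trpm8 neurons 5.21% of genes were above 0.5 and 8.91% below -0.5, and in cLTMR neurons 4.84% and 7.54%. Bdnf was the only one of 4 members past 0.5 in cLTMR neurons. In Trpm8 neurons 3 of 4 were, the others being Ntrk2, higher by 0.61 (0.26 to 0.96), and Ngfr, at -0.73 with an interval that holds 0 (-1.78 to 0.22).

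In PEP1 neurons Bdnf was higher by 0.23 (0.14 to 0.33), and its clusters differed among themselves. The cluster led by Sstr2 stood at -0.07 (-0.18 to 0.03), that led by Mfap5 at -0.83 (-1.23 to -0.46) and that led by Chrna3 at 0.37 (0.12 to 0.62). The last rests on the 1 CFA neuron with 90 of 193 counts, and without the highest neuron of each library it was -0.31 (-0.64 to 0.00). The Sstr2 cluster, with the most Bdnf, made up 94 of 250 control and 70 of 124 CFA PEP1 neurons. Of 4 members in PEP1 neurons only Ntrk3, at -0.63 (-1.14 to -0.15), was past 0.5, where 5.66% of genes were above and 7.35% below. In NF neurons Ntrk3 was higher by 0.56 (0.25 to 0.87), the only one of 4 members, where 14.3% of genes were above and 12.3% below. That direction rests on the 1 CFA neuron with 103 of 152 counts, and without the highest neuron of each library the ratio was -0.52 (-1.01 to -0.05). No member passed 0.5 in NP2 neurons (0 of 3, where 5.68% and 10.6% of genes did), or in PEP2 neurons, where only Bdnf had enough counts and 10.2% and 9.42% of genes did.

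**Figure D5:**
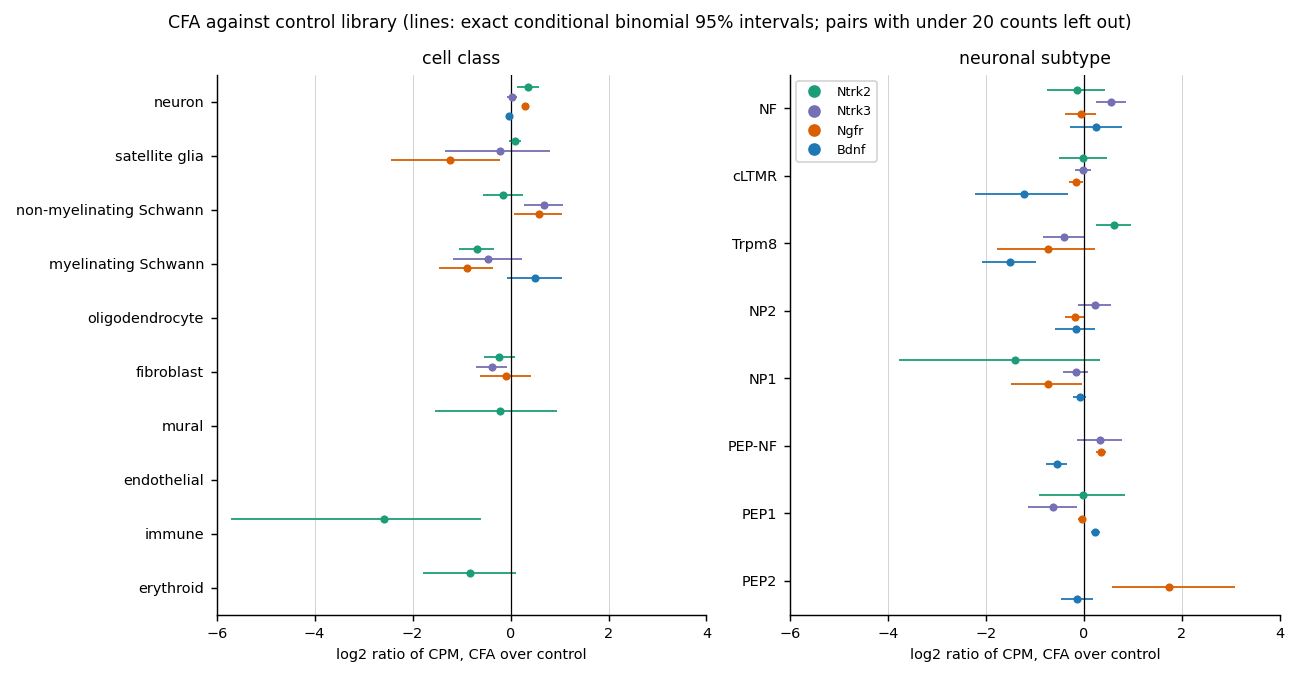
Log2 ratio of CFA over control CPM for Ntrk2, Ntrk3, Ngfr and Bdnf in each cell class (left) and neuronal subtype (right), with exact conditional binomial 95% intervals, for pairs with at least 20 counts in the 2 libraries together. Most intervals hold 0, and the ones that do not lie on both sides of it, with Bdnf in Trpm8 neurons at -1.51 and Ngfr in PEP-NF neurons at 0.35.

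Among glia, 2 of 3 member genes with at least 50 counts were above 0.5 in non-myelinating Schwann cells, where 13.8% of 4539 genes were and 15.9% were below -0.5. These were Ngfr at 0.58 (0.08 to 1.06) and Ntrk3 at 0.68 (0.28 to 1.07). The Ngfr value was 0.49 (-0.01 to 0.97) relative to the median gene and 0.48 (-0.07 to 1.01) without the highest cell of each library. Markers of this class were also higher in its CFA cells, at 6454 against 4177 CPM, and markers of myelinating Schwann cells lower, at 19869 against 27693, and their part in the ratios was not tested. The share of these cells with an Ngfr UMI, 5.31% and 4.83% after thinning, went the other way, so no order is read from it. In myelinating Schwann cells Ntrk2 at -0.69 (-1.06 to -0.33) and Ngfr at -0.89 (-1.47 to -0.36) were 2 of 4 member genes below -0.5, where 11.8% of genes were above 0.5 and 10.7% below -0.5. Neuron markers there were also lower, at 1336 against 2178 CPM. Per 100 counts of satellite glia markers, Ntrk2 in these cells made 1.981 control and 1.935 CFA counts. The part of satellite glia RNA in the Ntrk2 ratio was not tested. In satellite glia Ngfr was at -1.24 (-2.43 to -0.21), from 60 and 9 counts, where 10.4% of genes were above 0.5 and 11.4% below -0.5, and neuron markers were lower there too. Without the interferon-gene cluster its ratio was -0.67, and with stricter cell filters it was 0.34. Ntrk2 in satellite glia was at 0.10 (-0.03 to 0.22). In immune cells Ntrk2 was at -2.59 (-5.71 to -0.60), from 26 and 2 counts. None of 3 members passed 0.5 in fibroblasts, where 13.4% of genes were above and 12.6% below, and none of 4 over all non-neuronal cells, where 11.9% were above and 9.1% below. The nearest in fibroblasts was Ntrk3, at -0.38 (-0.70 to -0.07).

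Other genes of the neurotrophin pathway were taken from a list of 38 with known roles, of which 35 had at least 50 counts in neurons. Of these, 1 was above 0.5 and 0 were below -0.5, where 6.18% and 6.04% of all genes were, and the median was -0.01 against -0.003 for all genes. The gene above was Sorcs3, a receptor of the sortilin family, at 1.74 and 4.23 CPM (log2 ratio 1.29, 0.78 to 1.79). The other sortilin genes included Sort1, the co-receptor of p75 for proneurotrophins, at 24.1 and 20.4 CPM (-0.24), and Sorl1 at 124 and 125 CPM. Furin, a protease that cleaves proneurotrophins, stood at 17.7 and 17.2 CPM. None of the 18 measured adaptors and scaffolds of Trk receptors passed 0.5. Gab1 was the furthest below at -0.40 (-0.55 to -0.25), and Kidins220, a Trk scaffold, was at 0.17 (0.11 to 0.23). None of the 10 partners and processing enzymes of p75 passed 0.5 either. They ran from Ripk2 at -0.38 (-0.69 to -0.07) to Traf6 at 0.30 (-0.02 to 0.61). Bex3 was at -0.24 and Maged1 at -0.19, both binding partners of p75. Ntf5, which encodes the other ligand of TrkB, neurotrophin-4, had 2 counts in the neurons of each library.

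Over the 17 classes and named subtypes of both libraries, taken as 34 points of log2(CPM + 10) with at least 200 counts a gene, the genes with patterns most like each member were listed as a description. The points share 2 libraries. Ntrk2 was nearest to Gpx8 (Pearson's r = 0.93), a gene highest in fibroblasts. Next came Ndrg2 (0.91), highest in satellite glia, and Lhfp (0.91), highest in mural cells. Bdnf was nearest to Alkal2 (0.94) and Tmem255a (0.90). Ngfr (Stard10, 0.79) and Ntrk3 (Dzip1, 0.76) had no gene as near. The genes nearest to Ntf3 were the smooth muscle genes Myh11 (0.98) and Acta2 (0.98), which rests on the 3 Ntf3 counts in mural cells.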

How the data were processed

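Single TG cells were profiled on BD Rhapsody in 1 control and 1 CFA library. The authors deposited whole-number UMI counts per gene and cell, not normalized. The submitters' notes name fastp and GRCm38. The aligner, the annotation and the versions are not given in the sources used here. The members and all lists were chosen with earlier results of these data known.

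Cells with 150 genes or more and no more than 25% of mitochondrial counts were clustered in Seurat 5.3.0 (R 4.3.3; 2000 variable genes, 20 components, 20 neighbours, Louvain resolution 0.8, and 1 for neurons, seed 1). The 5 genes and the pathway list were left out. A cluster took the name whose markers scored highest, with at least 3 markers at 0.25 of their highest level and in 0.1 of cells. It stayed unnamed if its 10 leading genes held more markers of another type, or if UMIs were low. This scoring was set after the data were seen. Macrophage, lymphocyte and neutrophil clusters were pooled as immune. Doublets were kept, and removing cells with a Scrublet score (scanpy 1.11.5) above 0.25 was an alternative.

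Counts were summed per class and library. CPM carry exact Poisson, shares Clopper-Pearson and log2 ratios exact conditional binomial 95% intervals (scipy 1.17.1). Those of shares and log2 ratios were run on counts simulated from the binomial and Poisson models they assume. The simulation held no extra spread between cells, so it does not show how the intervals do with such spread. The limit that a count of 0 allows is 3 counts, in levels and in shares. UMIs of the 3′ assay were not divided by gene length, and levels of different genes were not compared. Genes were named as the 5 members in every class, the pathway list by its calls in neurons, and the nearest patterns. Alternatives changed the cell filters, the resolution, doublets, the scaling, the mix of clusters and the thinning depth. Total counts per library are in the report. No gene or locus was tested between conditions, because each has 1 library.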

Additional observations from a re-analysis of the deposited data

Results flagged for a closer look

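The log2 ratios of CFA over control had opposite directions in different cells for several of these genes, with counting intervals clear of 0 on both sides as first computed. With 1 library per condition these differences were not tested. Ntrk2 was at 0.36 in neurons (0.15, -0.07 to 0.35, with no limit on mitochondrial counts), -0.69 in myelinating Schwann cells and -2.59 in immune cells, the last from 26 and 2 counts. Per 100 counts of satellite glia markers, Ntrk2 in myelinating Schwann cells made 1.981 control and 1.935 CFA counts. Ntrk3 was at 0.68 in non-myelinating Schwann cells and -0.38 in fibroblasts. Ngfr was at 0.29 in neurons and 0.58 in non-myelinating Schwann cells (0.49, -0.01 to 0.97, relative to the median gene), and at -0.89 in myelinating Schwann cells and -1.24 in satellite glia, where neuron-marker RNA was also lower in the CFA library (1336 against 2178 CPM, and 300 against 629).

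Among neuronal subtypes, Ntrk3 was at 0.56 in NF and -0.63 in PEP1 neurons. In NF neurons 103 of the 152 CFA counts came from 1 neuron, and without the highest neuron of each library the ratio was -0.52 (-1.01 to -0.05). Ngfr was at 0.35 in PEP-NF and 1.75 in PEP2 neurons (8 and 27 counts), and at -0.73 in NP1 neurons (101 and 21 counts) and -0.16 in cLTMR neurons. In PEP2 neurons it was 1.62 (0.09 to 3.44) without the highest neuron of each library. Without the highest CFA neuron alone it was 1.03, with an interval that holds 0 (-0.30 to 2.48). Bdnf was at 0.23 in PEP1 neurons, and at -0.55 in PEP-NF, -1.51 in Trpm8 and -1.22 in cLTMR neurons. The PEP1 clusters were at -0.07 (led by Sstr2), -0.83 (Mfap5), -0.28 (Iigp1) and 0.37 (Chrna3). The last was -0.31 without the highest neuron of each library. The cluster led by Iigp1 held 17 control but only 2 CFA neurons, with 220 and 19 Bdnf counts, and its interval held 0 (-1.035 to 0.40). The Sstr2 cluster, with the most Bdnf, made up 94 of 250 control and 70 of 124 CFA PEP1 neurons. The cLTMR value rests on 55 and 13 counts.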

How the results depend on the processing

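No paired analysis was possible because each condition has 1 library, and for the same reason no replicate could be left out. Of the 18 results checked (10 log2 ratios and 4 shares in each library), 1 reversed. Ngfr in satellite glia went from -1.24 to 0.34 under a stricter cell filter (300 genes or more, mitochondrial share up to 10%), and the cause was not tested. That filter moved Ntrk2 over all non-neuronal cells from -0.42 to -0.57. For Ngfr in non-myelinating Schwann cells, 0.58 became 1.06 with doublets removed, 1.15 at the lower and 1.17 at the higher resolution. Bdnf over all non-neuronal cells went from -0.10 to -0.57 with no mitochondrial limit and to 0.24 with the same mix of clusters, where the first interval held 0 (-0.56 to 0.35). Ntrk2 in neurons went from 0.36 to 0.15 with no mitochondrial limit and to 0.17 with equal weight per cell. Alternatives chosen after seeing the data gave, with the same mix of clusters, 0.15 for Ngfr and -0.21 for Bdnf in neurons and -0.043 for Ntrk2 over all non-neuronal cells, and -0.32 for the last without clusters mostly of 1 library. Calling neurons at 1 UMI raised the shares, as its construction does, to 9.61% and 9.52% for Ntrk2, 26.4% and 27.3% for Ntrk3, 3.87% and 3.44% for both and 67.0% and 63.5% for Bdnf. Thinning to 5000 UMIs with 1 UMI gave 4.56% for control Ntrk2 and 17.4% and 17.6% for Ntrk3. Thinning to 20000 with 4 UMIs gave 9.23% for CFA Ntrk3, 0.146% and 0% for both and 46.1% for control Bdnf. Centring on the median gene, totals without mitochondrial genes, equal weight per cell and clustering with no gene left out moved none of the results they were applied to beyond the main interval, though centring took Ngfr in non-myelinating Schwann cells to 0.49 (-0.01 to 0.97). In satellite glia the Ngfr interval also held 0 with doublets removed (-0.63) and at the lower (-0.77) and higher (-0.50) resolution. Leaving out the highest cell of each library, also chosen after seeing the data, took Ntrk3 in NF neurons from 0.56 to -0.52 and Bdnf in the PEP1 cluster led by Chrna3 from 0.37 to -0.31. Depth limits Ntf3 (23 counts) and every glial value under about 50 counts.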

Other observations

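Nearly all of the little Ntf3 in neurons lay in the unnamed cluster led by Chp2, Cartpt and Prokr2, in 14 of 15 control and 2 of 3 CFA counts. That cluster had Ngfr at 785 and 910 CPM and Bdnf at 428 and 323 CPM, with Ntrk2 at 8.02 and 11.2 CPM and Ntrk3 at 7.74 and 8.30 CPM, in 97 control and 73 CFA neurons.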
